A study of Mus musculus with 4 samples.

Results

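Translation initiation and elongation factors are the proteins that load ribosomes onto mRNA and then move them along it. Their mRNA levels were compared in B220+CD43+ cells, labelled pro-B cells, that were sorted from the bone marrow of C57BL/6 mice and profiled by RNA sequencing. The members were the rows of the gene tables whose symbol begins with Eif1 to Eif6 or with Eef1 or Eef2. The eIF2 kinases, the Argonaute genes once named Eif2c, the eIF4E-binding proteins, the eIF4E transporter and the sex-linked pair Eif2s3x and Eif2s3y were left out. This gave 53 of 23312 genes. The rule itself used names only, but the members were chosen with earlier results of these data known. The first group was Cnot3 fl/fl RERTCre, in which both copies of Cnot3 carry loxP sites, and the second was Cnot3 +/+ RERTCre, with 2 libraries each from separate mice. All 4 mice therefore carried the Cre transgene and all were given the drug: injections of 1 mg tamoxifen were made on days 1, 2, 4 and 7, and marrow was taken on day 10. RERTCre is known as an inducible Cre inserted at the Polr2a locus, a gene active in nearly all tissues and not restricted to B-lineage cells. The labels used here give no ages.

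Initiation begins when eIF2 carries the initiator tRNA to the small ribosomal subunit, where eIF1, eIF1A and the large eIF3 complex help to find the start codon. The cap-binding factor eIF4E, the scaffold eIF4G and the helicase eIF4A bring the mRNA, and eIF2B recharges eIF2 with GTP after each round. During elongation eEF1A brings aminoacyl-tRNA, the eEF1B subunits recharge eEF1A, eEF2 moves the ribosome by one codon and eIF5A relieves stalls. The mRNAs of several of these factors, those of the elongation factors above all, begin with a terminal oligopyrimidine (TOP) tract and are translated together with ribosomal protein mRNAs. Cnot3 encodes a subunit of CCR4-NOT, the complex that removes poly(A) tails; in yeast its relative Not5 binds ribosomes whose exit site is empty, the site at which eIF5A also binds.

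Each library was deposited as FPKM, which scales fragments to transcript length and to the number mapped, so levels of different genes can be set side by side. The files hold no counts and the absolute depth is unknown. From the spacing of the lowest values, relative depth was 0.956 and 1 in Cnot3 fl/fl replicates 1 and 2 and 0.746 and 0.899 in Cnot3 +/+ replicates 1 and 2. Among genes under 0.3 FPKM, 11.8% to 13.3% lay at the ratio to Cnot3 fl/fl replicate 2 used for this, so the estimates are rough. Any scaling between libraries would also enter them. Cnot3 itself, measured over the whole gene, averaged 39.6 ± 0.882 FPKM in Cnot3 fl/fl, against 40.4 ± 1.60 FPKM in Cnot3 +/+ libraries (SD, n = 2 each), which does not check the genotype labels because the labels do not name the exons flanked by loxP. Cnot3 +/+ replicate 1 stood apart with Xist at 0.0242 FPKM, against 54.3 to 63.1 FPKM in the other libraries, and with the Y-linked Eif2s3y at 29.3 FPKM, against at most 0.0275 FPKM in the others. The labels give no sex, but these are the levels of a male in this library and of females in the other 3, so sex and this library cannot be told apart. The libraries were not pure early B-lineage RNA. The summed level of 8 plasmacytoid dendritic cell markers was 8208.5 and 9714 FPKM in Cnot3 fl/fl, against 10389 and 9961 FPKM in Cnot3 +/+ libraries, and that of 11 early B-lineage markers was 819 and 799.5 FPKM in Cnot3 fl/fl, against 995.5 and 1299.8 FPKM in Cnot3 +/+ libraries.

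Of the 53 members, 50 averaged at least 1 FPKM across the 4 libraries and were tested. Among these, Eif2b4 and Eef2k rose in Cnot3 fl/fl libraries, Eef1g and Eif5a fell, and 46 did not pass (limma on log2(FPKM + 1), Benjamini-Hochberg adjusted p under 0.05 over 11017 genes). Of all tested genes 9.49% were called, 6.22% higher and 3.28% lower in Cnot3 fl/fl, so 4 calls among 50 members is near the background. The median log2 fold change of the tested members was -0.10, against -0.01 over all tested genes. In 45 of the 50 the 2 Cnot3 fl/fl libraries lay on one side of the 2 Cnot3 +/+ libraries, 26 below and 19 above. This is 90.0% of members, where 64.4% of all tested genes did so (31.7% below and 32.7% above). These shares are not matched for level, since 48 of the 50 members but 8539 of the 11017 genes averaged at least 5 FPKM. With any one library left out no member was called, and the lowest adjusted p of any member was 0.200 and 0.211 without Cnot3 fl/fl replicate 1 or 2 and 0.0842 and 0.0917 without Cnot3 +/+ replicate 1 or 2. Without the filter on low values no member passed either (lowest adjusted p 0.0635), and without a mean-variance trend Eif2b4 and Eef1g alone did. In these bulk samples fewer cells of a type and less RNA per cell cannot be told apart.

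**Figure D1:**
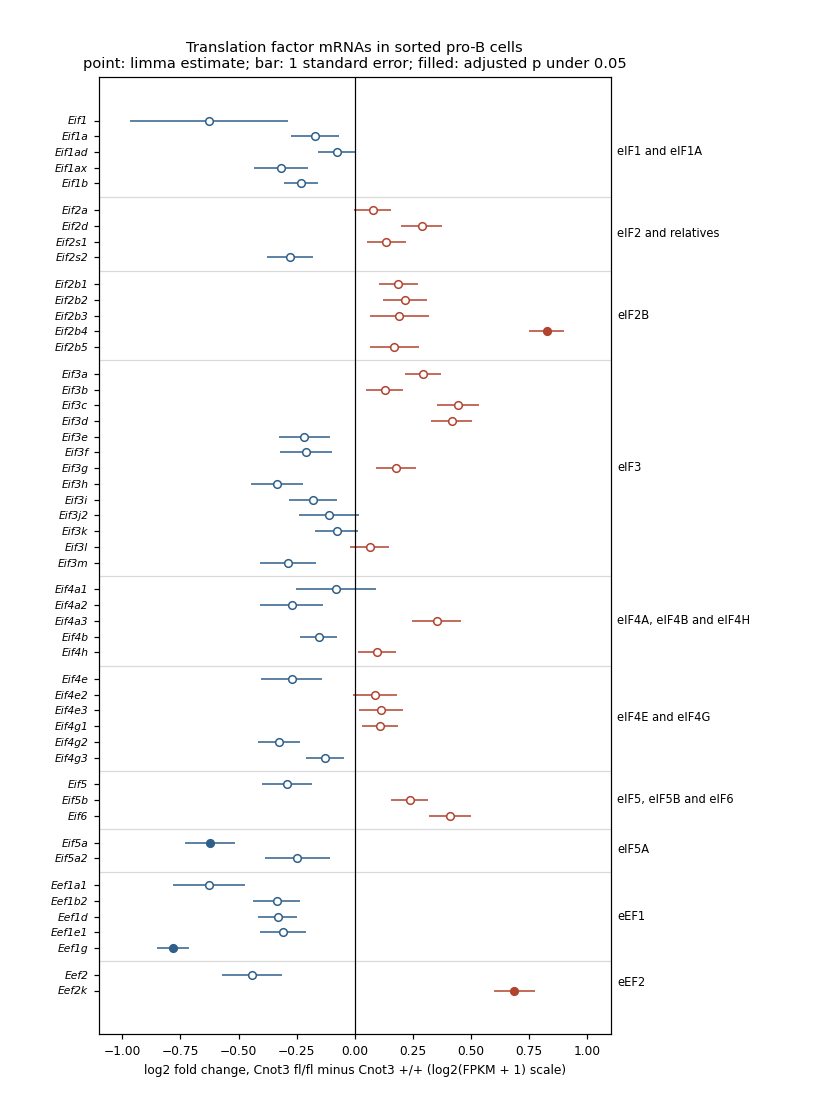
Log2 fold change of each tested translation factor, Cnot3 fl/fl minus Cnot3 +/+, on the log2(FPKM + 1) scale, grouped by role. Points are limma estimates from 2 libraries per genotype and bars are 1 standard error; red marks values above 0, blue values below 0, and filled points the 4 genes past the adjusted p of 0.05. The eIF1, eIF5A and eEF1 genes all lie left of 0 and the eIF2B genes all lie right of it.

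The gene with the greatest positive difference was Eif2b4, which encodes the delta subunit of eIF2B and lies on chromosome 5 from 31489930 to 31495512 (mm9, as the authors' locus column gives it). It measured 35.1 and 33.8 FPKM in Cnot3 fl/fl libraries, against 19.2 and 18.8 FPKM in Cnot3 +/+ libraries. The genotypes were far apart, and the level in Cnot3 fl/fl was 1.81-fold that in Cnot3 +/+ (log2 fold change 0.83, SE 0.074, limma adjusted p = 0.0242). Leaving out single libraries kept this log2 fold change between 0.80 and 0.85. Eif2b4 overlaps its neighbour Snx17, with which 7.84% of its 50-base stretches are shared on one strand or the other. Whether the counting used strand is not given, and Snx17 was at 86.3 ± 7.47 FPKM in Cnot3 fl/fl, against 71.0 ± 1.37 FPKM in Cnot3 +/+ libraries (SD, n = 2 each).

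Eef2k encodes the kinase that phosphorylates eEF2 and thereby slows elongation. It lies on chromosome 7 from 127986344 to 128050733 (mm9). Its level was 32.8 and 36.0 FPKM in Cnot3 fl/fl libraries, against 20.4 and 21.6 FPKM in Cnot3 +/+ libraries, again without overlap, and it rose 1.64-fold (log2 fold change 0.69, SE 0.087, limma adjusted p = 0.0357). Eef1g, for the gamma subunit of the eEF1B exchange complex, lies on chromosome 19 from 9041530 to 9052670. It stood at 36.0 and 34.9 FPKM in Cnot3 fl/fl, against 61.5 and 61.8 FPKM in Cnot3 +/+ libraries. It fell to 57.5% of the Cnot3 +/+ mean (log2 fold change -0.78, SE 0.070, limma adjusted p = 0.0242), the steepest fall among the members. Its value is uncertain in one respect, since 64.3% of the 50-base stretches of its transcript also occur in 5 other annotated genes or pseudogenes.

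Eif5a, on chromosome 11 from 69730213 to 69735460, encodes the factor that carries the amino acid hypusine. It measured 211.0 and 222.6 FPKM in Cnot3 fl/fl libraries, against 312.5 and 357.5 FPKM in Cnot3 +/+ libraries. It fell to 64.7% of the Cnot3 +/+ mean (log2 fold change -0.62, SE 0.109, limma adjusted p = 0.0426), and its log2 fold change lay between -0.72 and -0.53 with single libraries left out. In the authors' deposited table, which marked 6.59% of its tested genes as significant, Eef1g, Eef2k and Eif2b4 were significant with q-values of 0.00528, 0.00528 and 0.00787, whereas Eif5a had a q-value of 0.0567. No other member was marked there. That table rests on the same 4 libraries.

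**Figure D2:**
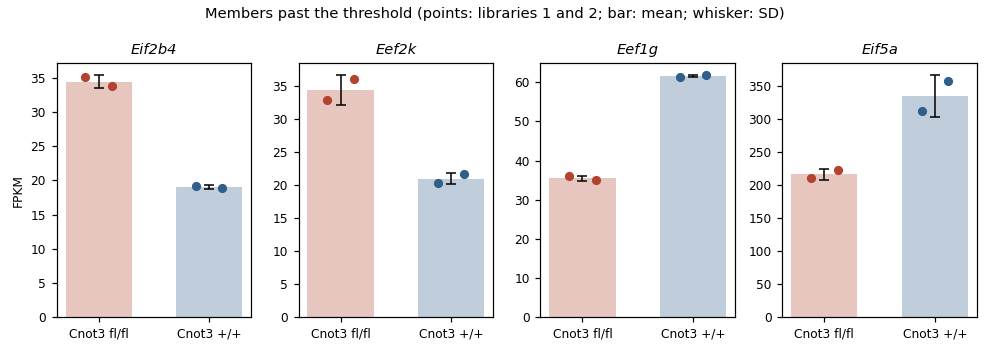
FPKM of the 4 members past the threshold, Cnot3 fl/fl left and Cnot3 +/+ right in each panel. Points are the 2 libraries of a genotype, bars the mean and whiskers the SD; Eif2b4 and Eef2k are higher in both Cnot3 fl/fl libraries and Eef1g and Eif5a lower in both.

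Promoter windows of 41 of the 53 members were found in the RefSeq table (GRCm38.p6), each running from 250 bases before to 50 bases after an annotated start. They were searched on both strands for CCGGAAG, the core bound by ETS-family factors such as GABPA, and for CACGTG, the E-box bound by Myc and its relatives; the 2 motifs cannot overlap. CCGGAAG occurred in 14 of the 41 members (34.1%), in 21.9% of the tested genes with a window and in 9.93% of all genes with one. CACGTG occurred in 12 of the 41 members (29.3%), in 12.2% of tested genes and in 8.09% of all genes. The 4 stretches below, from 100 bases before to 20 bases after the annotated start, are shown because each motif appears in one gene that rose and in one elongation factor gene whose difference was negative; capitals mark the motif. They are Eif2b4 at chr5:31193120-31193239 (minus strand), Eef1b2 at chr1:63176731-63176850 (plus strand), Eef2k at chr7:120842731-120842850 (plus strand) and Eef2 at chr10:81176531-81176650 (plus strand).
Eif2b4: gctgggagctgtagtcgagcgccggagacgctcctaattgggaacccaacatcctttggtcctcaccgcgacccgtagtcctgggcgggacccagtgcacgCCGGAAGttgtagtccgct
Eef1b2: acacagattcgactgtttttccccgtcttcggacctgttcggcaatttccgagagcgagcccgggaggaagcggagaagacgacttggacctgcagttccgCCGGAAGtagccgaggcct
Eef2k: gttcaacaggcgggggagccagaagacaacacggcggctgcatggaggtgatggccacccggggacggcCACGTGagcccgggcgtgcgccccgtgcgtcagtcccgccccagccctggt
Eef2: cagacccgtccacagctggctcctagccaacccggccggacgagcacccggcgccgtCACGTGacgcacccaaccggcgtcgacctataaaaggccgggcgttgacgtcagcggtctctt
In Eif2b4 and Eef1b2 the CCGGAAG begins 1 base after the first annotated base of the transcript. In the most upstream of the 3 annotated starts of Eef2k the CACGTG begins 31 bases before the start, and in Eef2 it begins 43 bases before it. In the same range Eef1a1 held neither motif. Nor did the most upstream of the 6 annotated starts of Eif5a, though both motifs occurred in the full windows of that gene. A match describes these letters and is not a measured binding site.

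The most abundant members were elongation factors. Eef1a1, the gene for the tRNA-carrying GTPase eEF1A, had the highest level of all members, at 1049.6 and 1205 FPKM in Cnot3 fl/fl, against 1677 and 1798 FPKM in Cnot3 +/+ libraries. The genotypes did not overlap, with a mean 64.9% of that in Cnot3 +/+ (log2 fold change -0.63, SE 0.156), but the gene did not pass (limma adjusted p = 0.0713). It passed with a minimum mean of 5 FPKM, with quantile normalization and with robust eBayes. Its transcript shares 60.6% of its 50-base stretches with 21 other annotated genes, so reads may have been split. The paralog Eef1a2, known from neurons and muscle, was listed at 0 in all 4 libraries.

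Eef2, for the translocase, came second in level, at 719.9 and 801.9 FPKM in Cnot3 fl/fl, against 1028 and 1038 FPKM in Cnot3 +/+ libraries. Its genotypes did not overlap either, and it did not pass (log2 fold change -0.44, limma adjusted p = 0.0921). The exchange factor gene Eef1b2 stood at 174.4 and 195.7 FPKM in Cnot3 fl/fl, against 227.1 and 240.0 FPKM in Cnot3 +/+ libraries (log2 fold change -0.34, limma adjusted p = 0.0963). Eef1d, another exchange subunit, measured 39.3 and 40.9 FPKM in Cnot3 fl/fl, against 48.3 and 53.4 FPKM in Cnot3 +/+ libraries (log2 fold change -0.33, limma adjusted p = 0.0747). All 5 detected elongation factors, Eef1a1, Eef1b2, Eef1d, Eef1g and Eef2, thus lay below Cnot3 +/+ in both Cnot3 fl/fl libraries, where 31.7% of all tested genes did, and 1 of the 5 passed the test. Eef1e1, whose product despite its name is a small protein of the multi-tRNA synthetase complex (AIMP3), stood at 16.0 and 14.4 FPKM in Cnot3 fl/fl, against 20.03 and 18.15 FPKM in Cnot3 +/+ libraries, without overlap and without passing (limma adjusted p = 0.110).

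**Figure D3:**
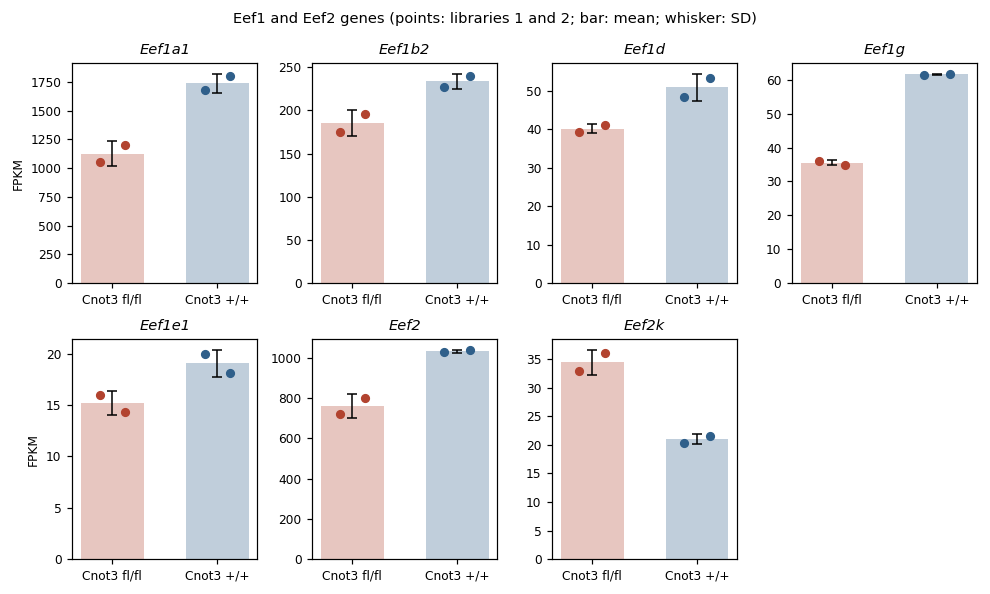
FPKM of the detected Eef1 and Eef2 genes, Cnot3 fl/fl left and Cnot3 +/+ right in each panel, each axis from 0. Points are the 2 libraries, bars the mean and whiskers the SD. In both Cnot3 fl/fl libraries 6 of the 7 genes are lower and the kinase gene Eef2k is higher. Of all tested genes 31.7% were lower in both and 32.7% higher in both.

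Summed over the 6 elongation factor genes, the level was 2019 and 2279 FPKM in Cnot3 fl/fl libraries, against 3042 and 3192 FPKM in Cnot3 +/+ libraries. The 41 tested and 2 untested initiation factor genes, eIF5A left aside, summed to 2872 and 3117 FPKM in Cnot3 fl/fl, against 2906 and 3165 FPKM in Cnot3 +/+ libraries, with overlap between the genotypes. The ratio of the mean sums was 0.689 for elongation and 0.986 for initiation. All 53 members took 1.27% and 1.29% of the summed FPKM in Cnot3 fl/fl and 1.48% and 1.54% in Cnot3 +/+ libraries, a difference of -0.22 percentage points (exact permutation test, two-sided p = 0.333, the smallest that 2 against 2 libraries allow). Without Eef1a1 and Eef2 the shares were 0.835% and 0.837% in Cnot3 fl/fl and 0.843% and 0.893% in Cnot3 +/+ libraries, and the difference was -0.032 percentage points. Most of the difference in the family's total thus lay in those 2 genes.

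**Figure D4:**
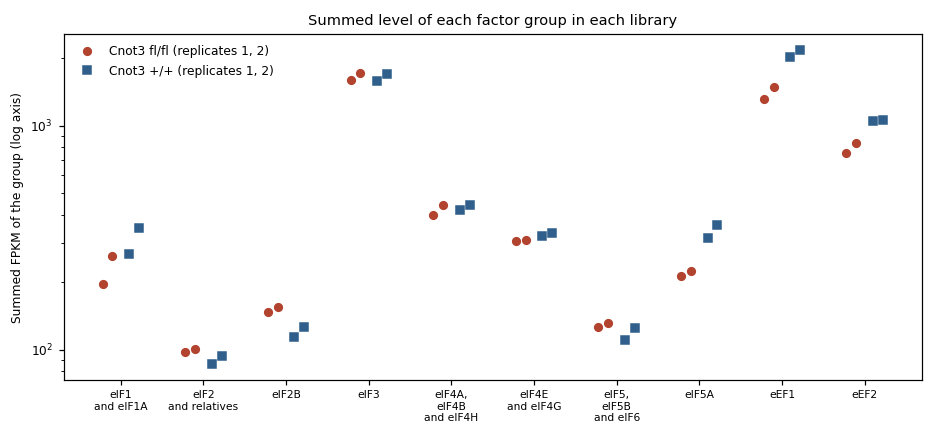
Summed FPKM of each factor group in each library, on a log axis. Circles are the 2 Cnot3 fl/fl libraries and squares the 2 Cnot3 +/+ libraries; eEF1, eEF2, eIF5A, eIF1 with eIF1A and eIF4E with eIF4G are lower in both Cnot3 fl/fl libraries, eIF2B, eIF2 and the eIF5, eIF5B and eIF6 group are higher in both, and eIF3 and the eIF4A group overlap.

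Markers of several cell types also differed between the genotypes. For comparison, limma called 3.28% of all tested genes lower and 6.22% higher in Cnot3 fl/fl. The authors' deposited table marked 6.59% of its tested genes. Of 11 early B-lineage markers 5 fell, among them Vpreb1 and Igll1 of the surrogate light chain, 0 rose and 6 did not pass, and Dntt, the most abundant, averaged 249.2 FPKM in Cnot3 fl/fl, against 216.6 FPKM in Cnot3 +/+ libraries. Of 8 plasmacytoid dendritic markers Cox6a2 fell and 7 did not pass, with Bst2 at 2868 FPKM in Cnot3 fl/fl, against 3195 FPKM in Cnot3 +/+ libraries on average. Of 5 tested classical dendritic markers Zbtb46 and Clec9a rose. The sum of all 6 was 379.8 and 412.7 FPKM in Cnot3 fl/fl, against 262.0 and 237.1 FPKM in Cnot3 +/+ libraries. Flt3 and Itgax made up most of this sum. Both were higher in both Cnot3 fl/fl libraries without passing (limma adjusted p = 0.0604 and 0.0558). Xcr1, too low to be tested, averaged 0.137 FPKM in Cnot3 fl/fl, against 0.147 FPKM in Cnot3 +/+ libraries, with overlap. Among 9 neutrophil and monocyte markers Elane, Ctsg and Itgam rose, with summed levels of 1197 and 1383 FPKM in Cnot3 fl/fl, against 880.1 and 1167 FPKM in Cnot3 +/+ libraries. Most of this sum was Ly6c2, at 997.8 and 1247 FPKM in Cnot3 fl/fl, against 756.9 and 996.1 FPKM in Cnot3 +/+ libraries (limma adjusted p = 0.287), and the neutrophil genes S100a8 and S100a9 overlapped between genotypes, with log2 fold changes of -0.04 and 0.06. Cd8a rose among 8 T and NK markers. Their sum was 720.4 and 615.5 FPKM in Cnot3 fl/fl, against 503.7 and 510.1 FPKM in Cnot3 +/+ libraries. Cd8a itself stood at 129.4 and 134.7 FPKM in Cnot3 fl/fl, against 15.7 and 25.7 FPKM in Cnot3 +/+ libraries. Cd3e, Cd3d and Nkg7 overlapped between genotypes, with log2 fold changes of -0.19, -0.16 and 0.02. Without passing in limma, Cd4 was lower in both Cnot3 fl/fl libraries and Klrd1, Gzmb and Ncr1 were higher in both. The 6 erythroid markers summed to 22.0 and 40.3 FPKM in Cnot3 fl/fl, against 28.8 and 63.8 FPKM in Cnot3 +/+ libraries, with 0 of 3 tested genes passing in limma and 0 at an unadjusted p under 0.05. The 8 proliferation genes, 0 of which passed in limma or had an unadjusted p under 0.05, summed to 192.1 and 172.2 FPKM in Cnot3 fl/fl, against 158.8 and 308.1 FPKM in Cnot3 +/+ libraries. The authors' deposited table marked 7 of the early B-lineage markers, 1 of the plasmacytoid dendritic markers and 2 of the classical dendritic markers. It also marked 4 of the neutrophil and monocyte markers, 4 of the T and NK markers, 2 of the proliferation genes and 0 erythroid markers. No marker in any of these lists was at 0 in all libraries. Their part in the differences of the translation factors was not tested.

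Among the factors of start-site selection, Eif1, which keeps the scanning ribosome open, varied most between libraries. It measured 81.3 and 145.0 FPKM in Cnot3 fl/fl, against 137.1 and 206.2 FPKM in Cnot3 +/+ libraries, so the genotypes overlapped and replicate 2 was higher in both (log2 fold change -0.63, SE 0.339, limma adjusted p = 0.264). With single libraries left out its log2 fold change lay between -1.04 and -0.21. Its paralog Eif1b was steadier, at 41.7 and 42.9 FPKM in Cnot3 fl/fl, against 51.2 and 48.4 FPKM in Cnot3 +/+ libraries (limma adjusted p = 0.111). X-linked Eif1ax stood at 34.4 and 35.9 FPKM in Cnot3 fl/fl, against 39.9 and 48.6 FPKM in Cnot3 +/+ libraries (limma adjusted p = 0.138), and its log2 fold change was -0.32 with all libraries and -0.46 without Cnot3 +/+ replicate 1. Eif1a, which like Eif1ax encodes eIF1A, averaged 14.3 ± 0.484 FPKM in Cnot3 fl/fl, against 16.3 ± 1.67 FPKM in Cnot3 +/+ libraries, and the related nuclear protein gene Eif1ad 24.5 ± 0.240 FPKM in Cnot3 fl/fl, against 25.9 ± 1.51 FPKM in Cnot3 +/+ libraries (SD, n = 2 each). None of these 5 genes passed in limma or was marked in the authors' deposited table, 2 had an unadjusted p under 0.05, against 33.8% of all tested genes, and 4 of them lay below Cnot3 +/+ in both Cnot3 fl/fl libraries, against 31.7% of all.

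Of the factors that bring the initiator tRNA, Eif2s1 and Eif2s2 encode the alpha and beta subunits of eIF2. Eif2s1 measured 11.5 and 11.7 FPKM in Cnot3 fl/fl, against 10.4 and 10.5 FPKM in Cnot3 +/+ libraries (limma adjusted p = 0.315), and Eif2s2 measured 8.13 and 8.70 FPKM in Cnot3 fl/fl, against 9.97 and 10.9 FPKM in Cnot3 +/+ libraries (limma adjusted p = 0.130). The alpha subunit was thus slightly higher and the beta subunit slightly lower in both Cnot3 fl/fl libraries, without either passing. Eif2d, for a factor of reinitiation and ribosome recycling, stood at 41.5 and 44.0 FPKM in Cnot3 fl/fl, against 33.1 and 36.6 FPKM in Cnot3 +/+ libraries (log2 fold change 0.29, limma adjusted p = 0.0990). Eif2a, which encodes an alternative tRNA-binding factor and not an eIF2 subunit, averaged 36.0 ± 0.167 FPKM in Cnot3 fl/fl, against 34.1 ± 1.87 FPKM in Cnot3 +/+ libraries (SD, n = 2 each). In limma 2 of these 4 genes had an unadjusted p under 0.05, which 33.8% of all tested genes had, and 0 passed. The authors' deposited table marked 0 of them.

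All 5 eIF2B subunit genes were higher in both Cnot3 fl/fl libraries than in either Cnot3 +/+ library, where 32.7% of all tested genes were, although Eif2b4 alone passed. The other regulatory subunit genes, Eif2b1 and Eif2b2, averaged 20.3 ± 0.426 and 49.7 ± 3.47 FPKM in Cnot3 fl/fl, against 17.7 ± 0.988 and 42.6 ± 3.15 FPKM in Cnot3 +/+ libraries (SD, n = 2 each; limma adjusted p = 0.194 and 0.193). The catalytic subunit genes Eif2b3 and Eif2b5 averaged 9.05 ± 0.683 and 36.9 ± 2.06 FPKM in Cnot3 fl/fl, against 7.83 ± 1.04 and 32.8 ± 3.52 FPKM in Cnot3 +/+ libraries (SD, n = 2 each; limma adjusted p = 0.346 and 0.318). The log2 fold changes of these 4 lay between 0.17 and 0.22, against 0.83 for Eif2b4. The subunits of this one complex therefore did not show differences of one size, and this contrast between subunits was not tested.

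The eIF3 genes, for the largest initiation factor, summed to 1604 and 1720 FPKM in Cnot3 fl/fl, against 1586 and 1700 FPKM in Cnot3 +/+ libraries, so the total overlapped while single subunits differed in sign. Of 13 tested subunit genes 0 passed in limma, 4 had an unadjusted p under 0.05, near the 33.8% of all tested genes, and the authors' deposited table marked 0. Both Cnot3 fl/fl libraries lay above both Cnot3 +/+ libraries for Eif3a, Eif3b, Eif3c, Eif3d and Eif3g, and below them for Eif3e, Eif3f, Eif3h, Eif3i, Eif3j2, Eif3k and Eif3m, a lack of overlap that 64.4% of all tested genes also showed. Eif3c, a core subunit, measured 155.0 and 162.5 FPKM in Cnot3 fl/fl, against 110.8 and 122.1 FPKM in Cnot3 +/+ libraries (log2 fold change 0.45, limma adjusted p = 0.0514). Eif3d, the subunit that can itself bind certain mRNA caps, stood at 163.4 and 173.3 FPKM in Cnot3 fl/fl, against 120.9 and 130.8 FPKM in Cnot3 +/+ libraries (log2 fold change 0.42, limma adjusted p = 0.0548). Both were called higher under quantile normalization and under robust eBayes, and Eif3c also after scaling to equal median ratios.

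Eif3a, the largest scaffold subunit, measured 118.5 and 123.6 FPKM in Cnot3 fl/fl, against 96.5 and 100.6 FPKM in Cnot3 +/+ libraries (limma adjusted p = 0.0776). Eif3h stood at 107.1 and 118.1 FPKM in Cnot3 fl/fl, against 131.7 and 152.9 FPKM in Cnot3 +/+ libraries (log2 fold change -0.33, limma adjusted p = 0.118), and its partner Eif3f, the most abundant subunit, at 307.5 and 353.6 FPKM in Cnot3 fl/fl, against 377.6 and 385.4 FPKM in Cnot3 +/+ libraries (limma adjusted p = 0.261). Eif3k was nearly level, averaging 281.7 ± 10.98 FPKM in Cnot3 fl/fl, against 297.3 ± 10.2 FPKM in Cnot3 +/+ libraries (SD, n = 2 each). Eif3g measured 138.2 and 149.0 FPKM in Cnot3 fl/fl, against 124.0 and 129.9 FPKM in Cnot3 +/+ libraries (limma adjusted p = 0.223). The remaining tested subunit genes, Eif3b, Eif3e, Eif3i, Eif3j2, Eif3l and Eif3m, had log2 fold changes between -0.29 and 0.13. Eif3j1 and Eif3j2 are near-identical, with 91.8% of the 50-base stretches of Eif3j2 found elsewhere, and the authors' locus column places both at the same site on chromosome 2. Eif3j1 was at most 1.38e-05 FPKM while Eif3j2 stood at 3.28 to 3.96 FPKM, so the split between them is uncertain.

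**Figure D5:**
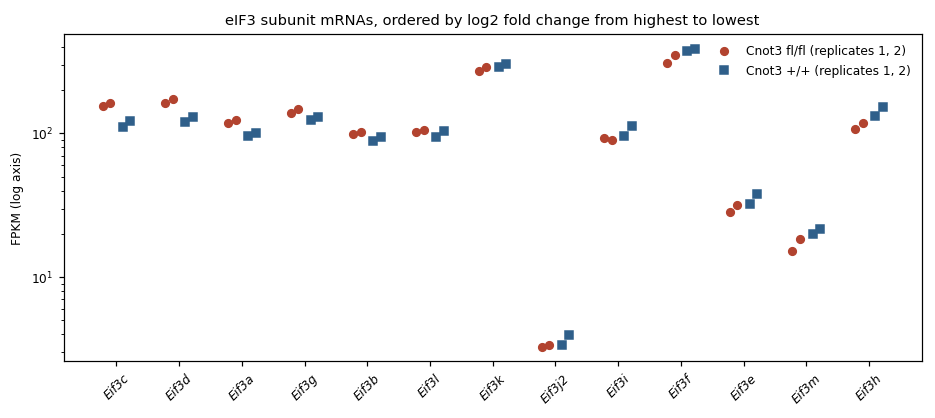
FPKM of the 13 tested eIF3 subunit genes on a log axis, ordered by log2 fold change from the highest, Eif3c, to the lowest, Eif3h. Circles are the 2 Cnot3 fl/fl libraries and squares the 2 Cnot3 +/+ libraries; the circles lie above the squares at the left end and below them at the right end.

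In the helicase group, Eif4a2 was more abundant than Eif4a1 in every library. Eif4a1 stood at 40.3 and 48.1 FPKM in Cnot3 fl/fl, against 40.3 and 54.0 FPKM in Cnot3 +/+ libraries, with overlap, and Eif4a2 at 69.2 and 84.2 FPKM in Cnot3 fl/fl, against 85.4 and 99.7 FPKM in Cnot3 +/+ libraries, without. Their ratio was 0.583 and 0.572 in Cnot3 fl/fl and 0.472 and 0.541 in Cnot3 +/+ libraries (exact permutation test, two-sided p = 0.333, the smallest possible). The level of Eif4a1 is uncertain, because 65.3% of its 50-base stretches occur in 8 other annotated genes. Eif4a3, the helicase of the exon junction complex, measured 44.2 and 51.6 FPKM in Cnot3 fl/fl, against 36.0 and 38.4 FPKM in Cnot3 +/+ libraries (log2 fold change 0.35, limma adjusted p = 0.0940). The helicase cofactor genes Eif4b and Eif4h averaged 110.7 ± 2.06 and 139.4 ± 6.39 FPKM in Cnot3 fl/fl, against 123.5 ± 4.98 and 130.3 ± 1.19 FPKM in Cnot3 +/+ libraries (SD, n = 2 each). Of these 5 genes 0 passed in limma and 1 had an unadjusted p under 0.05, against 33.8% of all tested genes. The authors' deposited table marked 0 of them.

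Among cap-binding proteins, Eif4e had a lower level than Eif4e2 and Eif4e3. It stood at 5.95 and 6.65 FPKM in Cnot3 fl/fl, against 7.09 and 8.57 FPKM in Cnot3 +/+ libraries (limma adjusted p = 0.2203). Eif4e2, for the repressive cap-binding protein 4EHP, averaged 34.1 ± 0.804 FPKM in Cnot3 fl/fl, against 32.1 ± 3.196 FPKM in Cnot3 +/+ libraries, and Eif4e3 17.7 ± 1.16 FPKM in Cnot3 fl/fl, against 16.3 ± 0.979 FPKM in Cnot3 +/+ libraries (SD, n = 2 each), both with overlap. The oocyte gene Eif4e1b was listed at 0 throughout. Of the scaffolds, Eif4g2, which encodes the DAP5 protein that lacks the cap-binding factor's docking site, measured 89.1 and 96.6 FPKM in Cnot3 fl/fl, against 111.9 and 121.3 FPKM in Cnot3 +/+ libraries (log2 fold change -0.33, limma adjusted p = 0.0836). The classical scaffold gene Eif4g1 stood at 100.3 and 95.4 FPKM in Cnot3 fl/fl, against 91.8 and 89.5 FPKM in Cnot3 +/+ libraries (limma adjusted p = 0.367). The ratio of Eif4g2 to Eif4g1 was 0.888 and 1.01 in Cnot3 fl/fl and 1.22 and 1.36 in Cnot3 +/+ libraries (exact permutation test, two-sided p = 0.333, the smallest possible). Eif4g3 averaged 57.8 ± 1.42 FPKM in Cnot3 fl/fl, against 63.3 ± 4.10 FPKM in Cnot3 +/+ libraries (SD, n = 2 each). In limma 1 of the 6 tested genes of this group had an unadjusted p under 0.05, against 33.8% of all, and 0 passed. The authors' deposited table marked 0 of them.

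At the last steps of initiation, Eif6, whose product keeps the large subunit from joining too early and serves in ribosome assembly, measured 68.0 and 68.8 FPKM in Cnot3 fl/fl, against 48.0 and 54.6 FPKM in Cnot3 +/+ libraries. The genotypes did not overlap (log2 fold change 0.41, SE 0.091, limma adjusted p = 0.0595), and it was called with robust eBayes. Eif5, the GTPase activator of eIF2, stood at 38.0 and 43.0 FPKM in Cnot3 fl/fl, against 46.7 and 53.0 FPKM in Cnot3 +/+ libraries (limma adjusted p = 0.138). Eif5b, the subunit-joining GTPase, measured 19.6 and 19.0 FPKM in Cnot3 fl/fl, against 15.9 and 16.7 FPKM in Cnot3 +/+ libraries (limma adjusted p = 0.119). All 3 genes had an unadjusted p under 0.05, which 33.8% of all tested genes had, and 0 passed in limma or in the authors' deposited table. The eIF5A paralog Eif5a2 was rare, at 2.17 and 2.08 FPKM in Cnot3 fl/fl, against 2.91 and 2.52 FPKM in Cnot3 +/+ libraries. The ratio of Eif5a to Eef1a1 was 0.193 ± 0.0115 in Cnot3 fl/fl and 0.193 ± 0.00881 in Cnot3 +/+ libraries (SD, n = 2 each; exact permutation test, two-sided p = 1), so these 2 abundant mRNAs differed between genotypes by nearly the same proportion.

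The list of TOP mRNAs among the factors held 10 genes: Eef1a1, Eef1b2, Eef1d, Eef1g, Eef2, Eif3a, Eif3e, Eif3f, Eif3h and Eif4b. In both Cnot3 fl/fl libraries the level was below that of either Cnot3 +/+ library for 9 of the 10, against 31.7% of all tested genes, with a median log2 fold change of -0.33, and Eif3a lay above. Eef1g alone passed. The elongation factors make up 5 of the 10, so this list does not add separate evidence.

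Genes that act on these factors were counted from further lists. Of 22 genes that control eIF2 and cap binding, Pabpc1 and Eif4ebp2 fell, 0 rose and 20 did not pass. Of all tested genes 9.49% were called, so 2 of 22 is near the background. Pabpc1, for the poly(A)-binding protein that contacts eIF4G, stood at 152.0 and 156.6 FPKM in Cnot3 fl/fl, against 245.3 and 234.1 FPKM in Cnot3 +/+ libraries (log2 fold change -0.63, limma adjusted p = 0.0361). Eif4ebp2, for an inhibitor of eIF4E, measured 58.0 and 57.3 FPKM in Cnot3 fl/fl, against 76.1 and 73.1 FPKM in Cnot3 +/+ libraries (log2 fold change -0.37, limma adjusted p = 0.0493). Of 8 tested termination and recycling genes Mcts2 fell and 7 did not pass, where 3.28% of all tested genes were called lower. Mcts2, a relative of the reinitiation factor gene Mcts1, fell to 44.5% of the Cnot3 +/+ mean (limma adjusted p = 0.0242). It measured 4.86 and 5.16 FPKM in Cnot3 fl/fl, against 11.2 and 11.3 FPKM in Cnot3 +/+ libraries. In the authors' deposited table, from the same libraries, its q-value was 0.879. The sequence it shares with other genes was not counted. Abce1, which splits ribosomes after termination, showed -0.33 on the log2 scale (limma adjusted p = 0.0606).

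Cytosolic aminoacyl-tRNA synthetases and their scaffolds had mostly positive differences. Both Cnot3 fl/fl libraries lay above both Cnot3 +/+ libraries in 18 of 22 genes, where 32.7% of all tested genes did, and the median log2 fold change was 0.26. Of the 22, Sars rose, 0 fell and 21 did not pass, where 6.22% of all tested genes were called higher. Sars, for seryl-tRNA synthetase, stood at 46.5 and 51.3 FPKM in Cnot3 fl/fl, against 34.3 and 34.6 FPKM in Cnot3 +/+ libraries (log2 fold change 0.49, limma adjusted p = 0.0421), and Wars showed 0.35 on the log2 scale (limma adjusted p = 0.0529). Of 6 measured genes that modify eIF5A and eEF2, 0 passed in limma. An unadjusted p under 0.05 was found for 1 of them, against 33.8% of all tested genes. That gene was Dph3, needed for the diphthamide residue of eEF2, with 6.47 ± 0.509 FPKM in Cnot3 fl/fl, against 8.72 ± 1.08 FPKM in Cnot3 +/+ libraries (SD, n = 2 each; limma adjusted p = 0.119), and the next, Dph1, had a log2 fold change of 0.23. The hypusine enzymes Dhps and Dohh, singled out after their values were seen, averaged 25.5 ± 0.182 and 27.6 ± 3.61 FPKM in Cnot3 fl/fl, against 28.0 ± 0.588 and 28.3 ± 0.230 FPKM in Cnot3 +/+ libraries (SD, n = 2 each). Of 9 mitochondrial translation factor genes 0 passed in limma and 0 had an unadjusted p under 0.05; the release factor genes Mtrf1 and Mtrf1l were nearest, with log2 fold changes of 0.28 and -0.25. The authors' deposited table marked no gene of the regulator, termination, synthetase, modification or mitochondrial lists, so Pabpc1, Eif4ebp2, Mcts2 and Sars were called in limma alone, and none of these 4 passed with any one library left out.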

How the data were processed

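Poly(A) RNA of 4 column-purified samples was made into stranded libraries with 15 PCR cycles, per the labels. Cufflinks 2.2.1 and Cuffnorm 2.2.1, Bowtie2 2.2.3.0 with TopHat2 2.0.13, bcl2fastq 1.8.4 and the build mm9 are listed by the submitters' processing notes. For annotation, filters and use of strand, no statement is given in the sources used here. Values were deposited by the authors as FPKM per gene and library, without counts. They also deposited a comparison with 1 FPKM per genotype, which for 99.9% of genes differs from the library mean by under 0.1%, and with p-values and q-values; their test is not given.

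From these files, log2(FPKM + 1) was fitted with limma 3.58.1 (R 4.3.3, eBayes with trend, two-sided) on 2 Cnot3 fl/fl against 2 Cnot3 +/+ libraries, over the 11017 genes that averaged 1 FPKM or more. A call was a Benjamini-Hochberg adjusted p under 0.05 over these genes. On this log2(FPKM + 1) scale the change of low genes is understated. Ratios and shares were compared by exact permutation. With 2 residual degrees of freedom, precision is low. The design speaks of individual mice, and the replicate numbers do not tie mice across genotypes.

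The members and lists were chosen with earlier results of these data known. Named in full were members past the threshold, in each role group the 4 with the smallest p and the most abundant, the 10 most abundant members, and in each further list the genes past the threshold and the 2 with the smallest p. Shared sequence was counted as the share of 50-base stretches of a gene's longest coding transcript (GENCODE M21) that occur in another annotated gene. It was over 10% in 16 of the 53 members, whose levels are less certain. Besides those named above, these include Eif3m (40.0%), Eif2s2 (27.8%), Eif3h (26.2%), Eif4a3 (24.4%), Eif3e (22.0%) and Eif3d (18.4%). Alternatives were other pseudocounts, filters, scalings and variance models, a replicate block and leaving out each library.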

Additional observations from a re-analysis of the deposited data

How the results depend on the processing

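In Cnot3 fl/fl 685 of all genes were called higher and 361 lower; for the members the counts were 2 and 2. Without a filter on low values these were 4 and 1 genes and 0 and 0 members, over 16296 genes. Without a trend in eBayes they were 242 and 69 genes and 1 and 1 members, Eif2b4 and Eef1g. Quantile normalization called 4 members higher and robust eBayes 5. The authors' q-values called 1 member lower. With single libraries left out, the counts over all genes were 2 to 18 higher and 0 to 13 lower, and 0 to 0 members in each direction; 10 to 16 members then had an unadjusted p under 0.05, as did 2059 to 3257 of all 11017 genes. A genotype with 1 library is assumed to vary like the other. The replicate block gave 456 genes higher and added Eif1 to the members called lower. The replicate numbers of the genotypes shared a correlation of 0.144 over genes, which is 1 pair of differences, so the samples are treated as sharing a number only.

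The median log2 fold change of the members lay between -0.13 and -0.03 with single libraries left out. The difference in share of summed FPKM, in percentage points, lay between -0.255 and -0.194 for the members, between -0.221 and -0.199 for the elongation factors and between -0.0103 and 0.0295 for the initiation factors. Without Eef1a1 and Eef2 it was -0.0319 for the members and -0.0181 for the elongation factors; the shares of the elongation and initiation factors were added after seeing the data. The log2 difference in ratio lay between 0.09 and 0.29 for Eif4a1 over Eif4a2, -0.53 and -0.34 for Eif4g2 over Eif4g1, -0.06 and 0.06 for Eif5a over Eef1a1, and -0.79 and 0.00 for Eif1 over Eif1b.

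Of genes near 0 that changed sign, Eif3k came to 0.00192 under quantile normalization. With single libraries left out, Eif4a1 lay between -0.29 and 0.13, above 0 when Cnot3 fl/fl replicate 1 or Cnot3 +/+ replicate 2 was omitted. Eif3l lay between -0.000557 and 0.13 and Eif4e2 between -0.0113 and 0.19, both below 0 when Cnot3 +/+ replicate 1 was omitted. The 4 members called kept their direction under each alternative run. The cause of these changes was not tested. Pseudocounts of 0.1 and 5 and a minimum mean of 5 FPKM kept all 4 calls. Depth is unknown, so low members such as Eif3j2 and Eif5a2 have no stated counting error.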
